A study of Homo sapiens with 120 samples.

Results

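The comparison concerns nonproliferative microrafts of CFPAC-1 cells after 5 nM gemcitabine, set against nonproliferative microrafts of the saline arm. CFPAC-1 is an established line of human pancreatic ductal adenocarcinoma with defective CFTR. A microraft is a small releasable culture element on which the cells are observed and from which the RNA of the whole raft is then amplified. Members were taken from the labels alone: rafts marked as not proliferative, 8 treated with 5 nM gemcitabine and 8 with saline, which are 16 of the 120 libraries of the series. Both groups share the cell line, the raft format and the amplification kit, and differ in the agent. The number of cells per raft is given as unknown, so fewer cells and less RNA per cell cannot be told apart. The labels name no library pool, but the same index pairs recur between arms, so libraries that share a pair were pooled apart. Each arm may have been a pool of its own. An effect of the drug and one of a pool hence cannot be told apart, and as no culture is named, every p-value measures the spread between rafts. Rafts are numbered 1 to 8 within a group in order of deposit, with no pairing between groups.

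Gemcitabine is a deoxycytidine analog that enters cells through nucleoside transporters such as SLC29A1 and is phosphorylated first by DCK. Its diphosphate inhibits ribonucleotide reductase (RRM1 and RRM2), its triphosphate is built into DNA and stalls replication, and CDA inactivates the drug by deamination. Cells in S phase are the most exposed, so a raft on which no division was seen under the drug can hold arrested, dying or slowly cycling cells.

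The deposited values are FPKM, fragments scaled by transcript length and library total, and a gene was counted as detected at an FPKM of 1 or more. Genes detected in the 5 nM rafts numbered 1541, 1351, 4478, 3737, 688, 1779, 10198 and 3719 for rafts 1 to 8. In the saline rafts they numbered 1011, 980, 10424, 1664, 7093, 8234, 9107 and 6428. The Spearman rho with the mean of 4 bulk CFPAC-1 libraries, taken across the 10767 rows with a bulk FPKM of at least 1, was -0.061, 0.171, 0.276, 0.383, -0.014, 0.063, -0.020 and 0.404 in the 5 nM rafts. It was -0.039, -0.012, -0.104, -0.028, 0.611, 0.747, 0.705 and 0.608 in the saline rafts. Both groups thus hold a few rafts that resemble bulk cells, several with few genes, and 1 raft with many genes and a rho near 0 (5 nM raft 7 and saline raft 3). Genes detected averaged 3436 ± 3052 in the 5 nM rafts and 5618 ± 3842 in the saline rafts (SD, n = 8 each). That difference of -2181 was smaller than the spread between rafts (exact permutation test, two-sided, p = 0.223, 0.85 after Benjamini-Hochberg adjustment over 7 library measures). The mean rho, 0.150 in 5 nM rafts and 0.311 in saline rafts, did not pass either (exact permutation p = 0.301, adjusted 0.85).

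**Figure D1:**
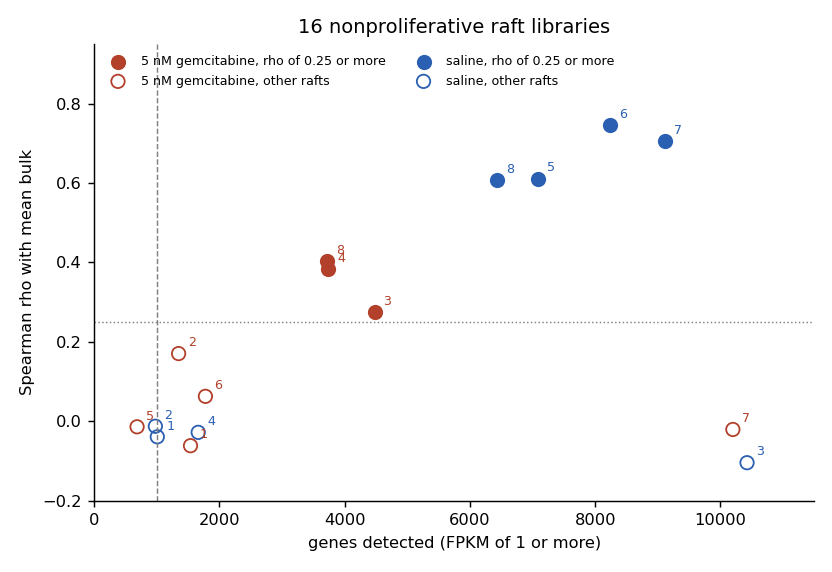
Genes detected at an FPKM of 1 or more (x axis) and Spearman rho with mean bulk (y axis) for the 16 nonproliferative rafts, 1 point per raft with its number. The dashed line marks 1000 genes, the dotted line a rho of 0.25, and filled points lie above both. The 3 filled 5 nM points lie at 3719 to 4478 genes and the 4 filled saline points at 6428 to 9107.

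The comparison was made with the rafts of at least 1000 genes, 7 in the 5 nM group and 7 in the saline group, and again with those that also had a rho of at least 0.25, 3 in the 5 nM group (rafts 3, 4 and 8) and 4 in the saline group (rafts 5 to 8). Of the 5 nM rafts, raft 3 (rho 0.276) lies just inside the second threshold and raft 2 (rho 0.171) just outside it. Of the saline rafts, raft 1 (1011 genes) lies just inside the first threshold and raft 2 (980 genes) just outside it. The share of rafts kept, 3 of 8 with 5 nM and 4 of 8 with saline, gave p = 1.0 in Fisher's exact test (two-sided). Of 9 ductal epithelial markers measured, among them EPCAM, KRT8 and KRT18, the kept 5 nM rafts had 6, 8 and 8 detected and the kept saline rafts 8, 8, 9 and 6. All 9 were detected in each bulk library and at most 2 in the 7 water blanks. The rafts left out by rho had 1 to 3 of these markers in the 5 nM group and 0 to 2 in the saline group, apart from 5 nM raft 7 with 9 and saline raft 3 with 8. Genes that mark blanks in this series, such as PCSK5 and STX17, took 1.91% of the FPKM in 5 nM raft 7 and 4.67% in saline raft 3, against 0.0137% to 0.0162% in the kept 5 nM rafts and 0.000665% to 0.00743% in the kept saline rafts. In those same 2 rafts 48.4% and 52.1% of the genes detected had a bulk FPKM under 1.

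Among the rafts kept by rho, the groups also differed in how deep into the transcriptome they reached. Of the 130 rows with a bulk FPKM of at least 1000, the 5 nM rafts had 96.2%, 97.7% and 99.2% detected and each saline raft had 100%. For rows of 100 to 1000 FPKM in bulk the shares were 60.7%, 65.8% and 70.9% in 5 nM rafts, against 93.3%, 98.9%, 99.1% and 92.0% in saline rafts. For rows of 10 to 100 FPKM they were 30.9%, 36.3% and 37.5% in 5 nM rafts and 73.2% to 91.6% in saline rafts. The most abundant mRNAs were thus seen in nearly full number in both groups, while each 5 nM raft detected a smaller part of the middle of the range than each saline raft. Neither these shares nor the genes detected overlap between the groups. As the rafts were kept by measures of this kind, the values are a description. How much of each difference below follows from fewer transcripts captured was not tested beyond the fits that adjust for it.

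**Figure D2:**
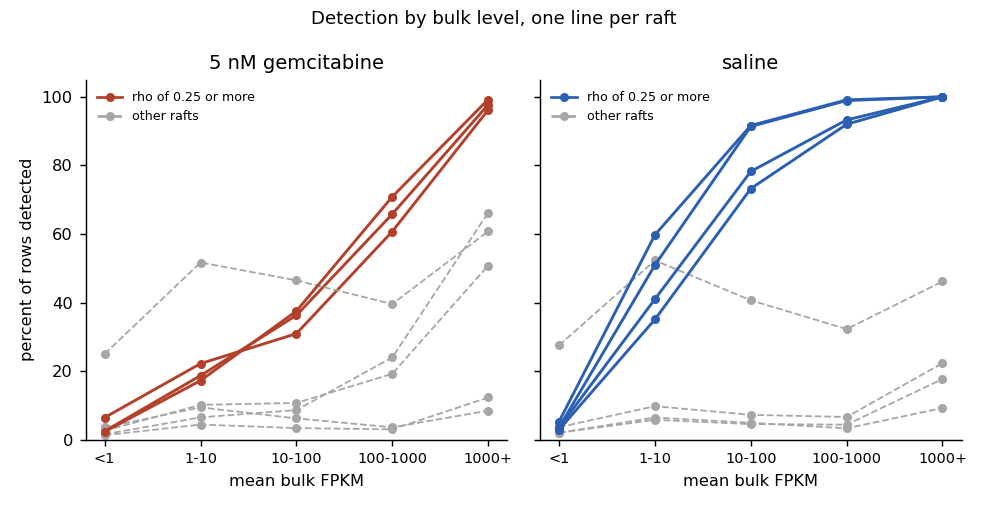
Percent of rows detected at an FPKM of 1 or more (y axis) in 5 bands of mean bulk FPKM (x axis), with 5 nM gemcitabine on the left and saline on the right and 1 line per raft. Coloured solid lines are rafts with a rho of at least 0.25. In the band of 100 to 1000 FPKM these rafts reach 60.7% to 70.9% with 5 nM and 92.0% to 99.1% with saline.

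With the 7 and 7 rafts of at least 1000 genes, no gene passed. Of 11560 rows tested with limma, 0 (0.0%) reached an adjusted p under 0.05, the smallest adjusted p was 0.335, and 1520 rows had an unadjusted p under 0.05, 130 higher and 1390 lower in the 5 nM rafts. The median difference over all rows was -0.84 on the log2(FPKM + 1) scale. Collagenase MMP1 had the smallest p (6.46e-05, adjusted 0.335). It was listed at 0 in all 7 of the 5 nM rafts, against 432, 10.8, 12.4 and 841 FPKM in saline rafts 5 to 8 and 0 in saline rafts 1, 3 and 4. The matrix glycoprotein TNC was likewise listed at 0 in all 7 of the 5 nM rafts and stood at 54.7, 14.0, 6.88, 7.44, 9.79 and 9.88 FPKM in 6 of 7 saline rafts. The zeros of both genes include 5 nM raft 7 with its 10198 genes, whose rho with bulk was -0.020. Saline raft 3, with 10424 genes, was at 0 for MMP1 too.

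Some genes stood higher in 5 nM rafts, and none of these passed. The calcium-binding protein S100P had 456, 81.8, 5248, 18.4 and 496 FPKM in 5 of the 5 nM rafts, against 108 and 3.98 FPKM in 2 saline rafts, with 0 elsewhere (difference 4.53 ± 1.58 SE, limma adjusted p = 0.335). CXCL2, a neutrophil chemokine, had 1478, 5.93, 722 and 13.6 FPKM in 4 of the 5 nM rafts and was listed at 0 in all 7 saline rafts. BIRC3, an inhibitor of apoptosis induced by NF-kB, ranged from 0 to 2638 FPKM with a median of 213 in 5 nM rafts, against 0 to 52.8 with a median of 5.47 in saline rafts (4.36 ± 1.56, adjusted p = 0.335). NDRG1, a gene induced by hypoxia and stress, was detected in 5 of 7 with 5 nM and 2 of 7 with saline (3.27 ± 1.16, adjusted p = 0.335). The groups overlap for each of these genes, since some 5 nM rafts are at 0 too. On simulated data, 41 of 50 genes shifted by 6 log2 units were recovered, 30 of 50 shifted by 4 and 6 of 50 shifted by 2. Of 11360 unshifted genes 8 were called. Those data were normally distributed with no values cut at 0, and were shifted upward only. The real rows hold many zeros and mostly lower values, so these counts do not give the recovery for them. Weighting each library by its fit with limma's arrayWeights turned the 0 into 1909 genes, 46 higher and 1863 lower.

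With the 3 and 4 rafts kept by rho, 113 of 10083 rows passed (1.12%), of which 97 (0.962%) were lower and 16 (0.159%) higher with 5 nM gemcitabine. The median over all rows was -1.34, so most rows stood below 0 whether or not they passed. Of the 97 lower genes all were detected in all 4 saline rafts, 59 were listed at 0 in all 3 of the 5 nM rafts, and 89 had a bulk FPKM of at least 10. Over all rows tested, 1023 (10.1%) were at 0 in every kept 5 nM raft and detected in every kept saline raft, 1652 (16.4%) had every 5 nM value below every saline value and 218 (2.16%) the reverse. All 113 had the same sign with 7 and 7 rafts, where 68 of the lower and 8 of the higher genes had an unadjusted p under 0.05 and none passed. As the 7 and 7 rafts include the 3 and 4 in which these genes were called, this is no separate check.

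**Figure D3:**
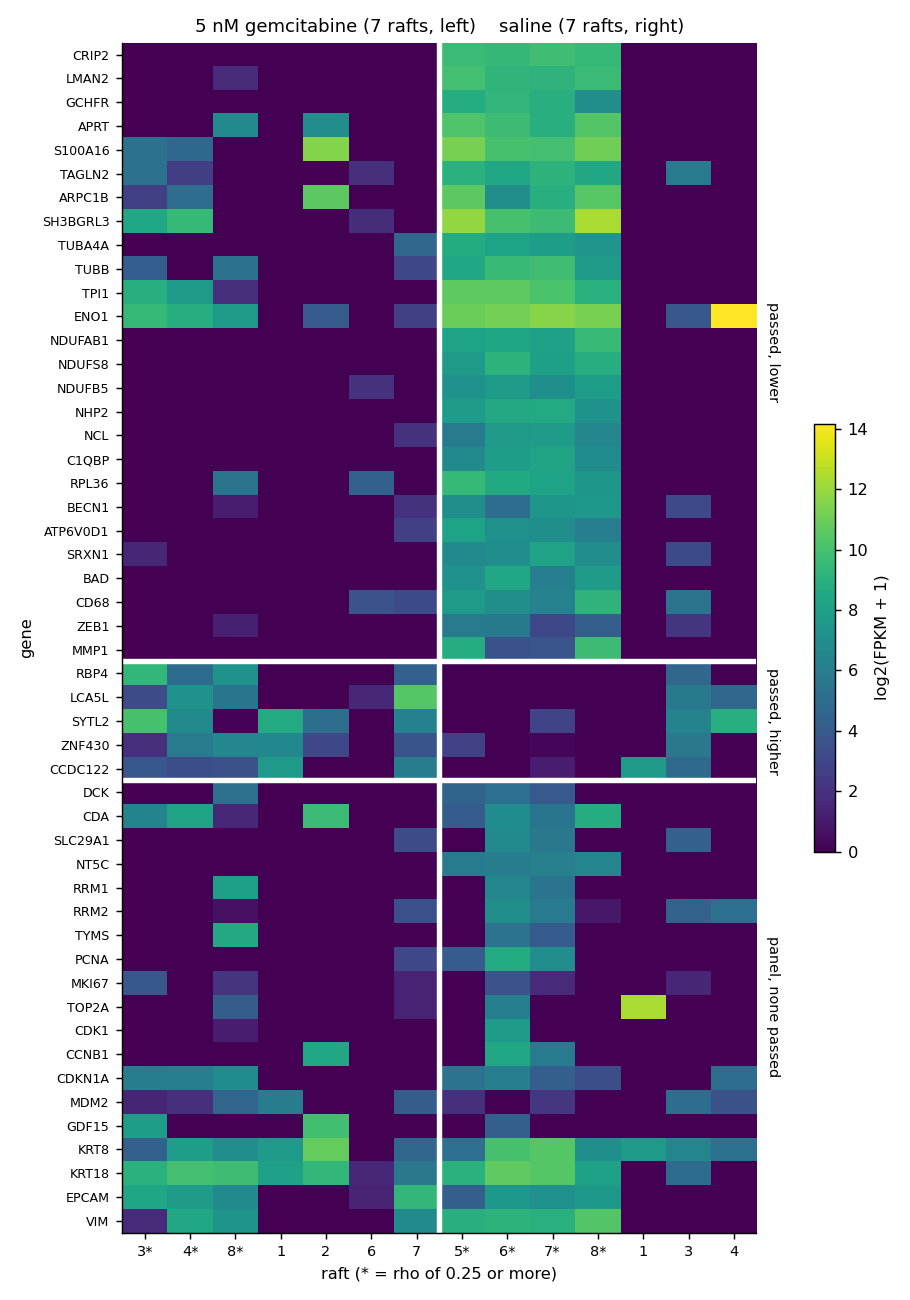
log2(FPKM + 1), as colour, of 50 genes (rows) in the rafts with at least 1000 genes (columns), with 7 rafts of 5 nM gemcitabine on the left and 7 of saline on the right. Asterisks mark rafts with a rho of at least 0.25. The upper block holds genes that passed as lower, the middle block genes that passed as higher and the lower block panel genes, none of which passed. CRIP2 is listed at 0 in each 5 nM raft and stands at 706 to 910.0 FPKM in saline rafts 5 to 8.

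The lower genes named first have differing roles. S100A16, a calcium-binding protein, fell to 38.1, 26.8 and 0 FPKM in 5 nM rafts, against 2437, 1077, 988 and 2180 FPKM in saline rafts (difference -7.23 ± 1.04 SE, limma adjusted p = 3.45e-05). APRT, which salvages adenine into AMP, fell to 0, 0 and 103 FPKM with 5 nM, against 1236, 853, 464 and 1336 with saline (-7.58 ± 1.14, adjusted p = 5.67e-05). The 2 groups do not overlap for either gene. LMAN2, a cargo lectin between the endoplasmic reticulum and the Golgi, had 0, 0 and 2.18 FPKM in 5 nM rafts and 990, 624.6, 601 and 799 in saline rafts (adjusted p = 0.00337). CRIP2, a LIM-domain protein, was listed at 0 in all 3 of the 5 nM rafts, against 794, 706, 910.0 and 707 FPKM in saline rafts (adjusted p = 0.00622). GCHFR, the feedback regulator of tetrahydrobiopterin synthesis, was also listed at 0 in each 5 nM raft, against 431, 642, 490 and 125 FPKM with saline (adjusted p = 0.0215). Outside the kept set S100A16 ran the other way in 5 nM raft 2, with a rho of 0.171 and 2943 FPKM, as did the actin gene ARPC1B described next with 1561 FPKM.

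Counts within gene lists stand beside 0.962% of all rows called lower and a median over all rows of -1.34, and no list was tested against them. Of 25 actin and cytoskeleton genes tested 3 fell and 0 rose, with a list median of -1.34. TAGLN2, an actin-bundling protein, had 40.3, 5.16 and 0 FPKM in 5 nM rafts and 520, 365, 568.5 and 345 FPKM in saline rafts (-6.12 ± 1.17, adjusted p = 0.00318). ARPC1B, a subunit of the ARP2/3 complex, had 5.42, 32.5 and 0 FPKM in 5 nM rafts, against 1529, 128, 466.3 and 1433 FPKM in saline rafts (adjusted p = 0.0261). SH3BGRL3 was the third (-5.03 ± 1.28, adjusted p = 0.0362). Of 12 tubulin genes tested 2 fell, and all 12 had a negative difference. TUBB, a main beta-tubulin, had 18.2, 0 and 37.7 FPKM with 5 nM and 343, 739, 923 and 196 FPKM with saline (-5.68 ± 1.43, adjusted p = 0.0349). TUBA4A, an alpha-tubulin, was listed at 0 in each 5 nM raft and reached 424, 298, 234 and 167 FPKM in saline rafts (adjusted p = 0.0335).

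The glycolytic enzymes ENO1 and TPI1 were among the 795 rows detected in every kept raft, of which 4 passed. ENO1, which makes phosphoenolpyruvate, fell to 728, 446 and 191 FPKM in 5 nM rafts, against 1989, 2399, 3031 and 2442 FPKM in saline rafts (-2.62 ± 0.69, adjusted p = 0.0443). TPI1, which interconverts the triose phosphates, fell to 498, 200 and 2.74 FPKM with 5 nM, against 1615, 1587, 1159 and 515 with saline (-3.95 ± 0.99, adjusted p = 0.0348). Of the 25 glycolysis and hypoxia genes tested these 2 fell and none rose. In the respiratory chain 2 of 69 genes fell, NDUFS8 and NDUFB5, both subunits of complex I. NDUFS8 was listed at 0 in each 5 nM raft, against 202, 567, 261 and 451 FPKM in saline rafts (adjusted p = 0.000791). The acyl carrier protein NDUFAB1, which also sits in complex I, was at 0 in each 5 nM raft and at 294, 325, 271 and 775 FPKM in saline rafts (adjusted p = 0.00318). All 3 complex I genes were at 0 in 5 nM rafts 3, 4 and 8, and were picked as genes that passed in these rafts. Of all rows tested, 1023 (10.1%) were at 0 in every kept 5 nM raft and detected in every kept saline raft. The kept 5 nM rafts detected 53 of the 69 respiratory chain genes each, against 68 or 69 in saline rafts.

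Of 27 ribosome biogenesis genes 3 fell, NHP2, NCL and C1QBP, beside 0.962% of all rows, and the list median was -1.83. NHP2, a protein of the box H/ACA particles that guide RNA modification, was listed at 0 in each 5 nM raft and had 228, 376, 405 and 153 FPKM in saline rafts (adjusted p = 0.0187). NCL, the nucleolar protein nucleolin, was at 0 in each 5 nM raft and at 56.5, 196, 227 and 92.5 FPKM with saline (adjusted p = 0.0261). Of 70 cytosolic ribosomal proteins only RPL36 passed, with 0, 0 and 43.2 FPKM in 5 nM rafts and 712, 394, 292 and 182 FPKM in saline rafts (-6.63 ± 1.45, adjusted p = 0.00981). Between 67 and 69 of the 70 were detected in each 5 nM raft and all 70 in each saline raft, 47 of the 70 differences were positive, and the median was 0.36, or -0.09 with 7 and 7 rafts. Their summed share of FPKM was 14.4%, 9.86% and 12.6% in 5 nM rafts and 6.79%, 9.54%, 7.96% and 6.88% in saline rafts, with no overlap. Under quantile normalization the median difference of these genes was 0.02 in the kept rafts, against 0.06 over all rows.

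Single members of other lists passed as well. The pro-apoptotic BAD was listed at 0 in each 5 nM raft, against 141, 340, 67.8 and 226 FPKM in saline rafts (adjusted p = 0.0428). It was the 1 call among 22 apoptosis regulators. SRXN1, which repairs oxidized peroxiredoxins and is a target of NRF2, had 1.86, 0 and 0 FPKM with 5 nM and 104.8, 121, 281 and 121 with saline (-6.67 ± 1.75, adjusted p = 0.0432), the 1 call among 20 NRF2 targets. Of 28 lysosome and autophagy genes 2 fell, the autophagy initiator BECN1 (-6.42 ± 1.37, adjusted p = 0.0093) and the proton pump subunit ATP6V0D1 (listed at 0 in each 5 nM raft, 296, 136, 134 and 66.8 FPKM with saline, adjusted p = 0.0401). ZEB1, a repressor of epithelial genes, had 0, 0 and 1.37 FPKM in 5 nM rafts and 54.98, 52.8, 7.47 and 18.8 FPKM in saline rafts (-4.32 ± 1.17, adjusted p = 0.0465). It was the 1 call among 8 mesenchymal genes. MMP1, the 1 call among 17 senescence-associated secreted factors, passed as lower (adjusted p = 0.00454), with the values given above. CD68, a lysosomal protein listed here as a blood cell marker, was at 0 in each 5 nM raft and at 206, 128, 75.5 and 600 FPKM with saline (adjusted p = 0.0465). Of the 12 blood cell markers in the table it was the only one tested. At most 1 of the 12 was detected in any kept raft, as in bulk, where 1 or 2 were.

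The 16 higher genes were mostly scarce in bulk, 13 of them with a bulk FPKM under 10, and 6 were listed at 0 in all 4 saline rafts. RBP4, the plasma carrier of retinol, had 659, 30.95 and 146 FPKM in 5 nM rafts and was listed at 0 in each saline raft (adjusted p = 0.0349). LCA5L, a paralog of a ciliary protein gene, had 8.69, 155 and 45.0 FPKM in 5 nM rafts, against 0 in each saline raft (adjusted p = 0.0017). SYTL2, an effector of RAB27 in vesicle traffic, had 1037, 103 and 0.12 FPKM with 5 nM, against 0, 0, 6.32 and 0 with saline (4.91 ± 1.27, adjusted p = 0.0401). ZNF430, a zinc finger protein, had 2.76, 57.3 and 94.4 FPKM in 5 nM rafts and 5.58, 0, 0.20 and 0 in saline rafts (4.04 ± 1.10, adjusted p = 0.0485). CCDC122, a coiled-coil protein, had 13.6, 9.73 and 10.5 FPKM in 5 nM rafts and 0, 0, 1.17 and 0 in saline rafts (3.32 ± 0.89, adjusted p = 0.0465). These genes were not quiet in saline throughout: among the saline rafts with a low rho, raft 3 had 24.4 FPKM of RBP4, 52.8 of LCA5L and 80.4 of SYTL2, and raft 4 had 468 of SYTL2. The other 11 include CA5B, DAND5, 1 row of GRK4 and transcripts listed by accession-like names.

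The balance of calls depended on how libraries were put on a common scale. Quantile normalization gave 490 higher and 221 lower genes, and a term for the number of genes detected gave 63 higher and 58 lower, in place of 16 and 97. The median over all rows moved to 0.06 and -0.26 in those fits, against -1.34 as deposited. All 113 genes kept their sign in both, with 111 and 67 of them passing. Of the named genes that did not pass as deposited, 17 passed under quantile normalization (12 higher, 5 lower) and 7 with genes detected as a term (all higher). Leaving out 1 raft at a time gave between 33 and 111 calls, not always of the same genes. Of the 111 calls without 5 nM raft 8, 52 were among the 113. The shared calls were 47 of 90 without 5 nM raft 4 and 31 of 44 without 5 nM raft 3. They were 41 of 44, 35 of 36, 33 of 33 and 33 of 33 without saline rafts 5, 6, 7 and 8. The lowest counts came without saline raft 7 or saline raft 8 (33 each), followed by saline raft 6 (36), and saline raft 5 or 5 nM raft 3 (44 each).

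Of the 795 rows detected in all 7 kept rafts, 4 passed, 3 lower (ENO1, TPI1 and a transcript with no gene symbol) and 1 higher (another such transcript). The median difference of these rows was 0.26, with 456 positive and 339 negative. Rows chosen in this way exclude every gene that fell to 0, so this median is a description of the rows left and bears on nothing else.

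Genes of gemcitabine metabolism gave no call in either fit. Of 19 tested, the median was -1.65 in the kept rafts and -1.15 with 7 and 7, against -1.34 and -0.84 over all rows. With 7 and 7 rafts the differences ran from -3.49 to 4.75, and the highest over all rows was 4.75 too. By limma 1 member was higher and 2 lower there at an unadjusted p under 0.05. In the kept rafts the differences ran from -6.11 to 0.78, with 0 higher and 4 lower at that level. The activating kinase DCK had 0, 0 and 36.7 FPKM in 5 nM rafts and 22.9, 35.0, 14.4 and 0 FPKM in saline rafts (adjusted p = 0.568). CDA, which inactivates the drug, had 84.4, 314 and 2.10 FPKM with 5 nM and 16.6, 117, 43.6 and 438 with saline (-0.87 ± 1.97, adjusted p = 0.80). The transporter SLC29A1 was listed at 0 in each kept 5 nM raft, against 0, 105.3, 50.8 and 0 FPKM in saline rafts (adjusted p = 0.344). The nucleotidase NT5C, which removes phosphate from deoxynucleotides, was listed at 0 in all 7 of the 5 nM rafts, against 56.4, 62.6, 70.1 and 86.6 FPKM in saline rafts 5 to 8 (adjusted p = 0.0762). It is the member whose kept groups stand clear of each other without passing. RRM1 was seen in 5 nM raft 8 only (253 FPKM), against 88.4 and 43.1 FPKM in saline rafts 6 and 7, and TYMS likewise (370 FPKM in 5 nM raft 8, against 40.6 and 16.2 in those saline rafts). RRM2 had 0, 0 and 0.58 FPKM in kept 5 nM rafts and 0, 128, 54.9 and 0.85 in kept saline rafts (adjusted p = 0.35). In the kept rafts RRM1 and TYMS were thus each detected in 1 raft with 5 nM and 2 with saline.

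Cell cycle genes showed the same patchiness. PCNA, the sliding clamp of DNA replication, was at 0 in the kept 5 nM rafts, against 16.5, 418, 123 and 0 FPKM in saline rafts (adjusted p = 0.171). CDK1 had 0, 0 and 1.15 FPKM with 5 nM and 0, 218, 0 and 0 with saline (adjusted p = 0.677). CCNB1 was at 0 in kept 5 nM rafts, against 0, 351, 59.1 and 0 in saline rafts (adjusted p = 0.293). MKI67 had 13.5, 0 and 3.47 FPKM in kept 5 nM rafts and 0, 11.2, 2.23 and 0 in kept saline rafts (0.68 ± 1.48, adjusted p = 0.791). TOP2A had 0, 0 and 16.9 FPKM in kept 5 nM rafts and 68.2 FPKM in saline raft 6 only (adjusted p = 0.981). Among the kept saline rafts, all labelled nonproliferative, raft 6 carried each of these transcripts. Raft 7 carried PCNA, CCNB1 and little MKI67, and rafts 5 and 8 almost none. Rafts 6 and 7 also detected the most genes of the 4 (8234 and 9107, against 7093 and 6428 in rafts 5 and 8). The part of gene detection in this pattern was not tested. Of 58 G2/M genes, 9 to 22 were detected per kept 5 nM raft and 10 to 55 per kept saline raft. Proliferative rafts kept by rho had 5 to 58 with 5 nM and 23 to 58 with saline. None of the 63 G1/S and 57 G2/M genes tested passed.

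Targets of p53, a factor that gemcitabine damage can engage and that is mutated in CFPAC-1, gave no call among 24 on the values as deposited. CDKN1A, the CDK inhibitor p21, had 64.4, 67.2 and 115 FPKM in kept 5 nM rafts, against 40.7, 66.3, 18.3 and 9.49 FPKM in kept saline rafts (1.55 ± 1.69, adjusted p = 0.593). MDM2 had 1.72, 2.91 and 23.6 FPKM with 5 nM and 2.94, 0, 3.74 and 0 with saline (adjusted p = 0.439). MDM2 passed as higher under quantile normalization (adjusted p = 0.0436), but not with genes detected as a term (adjusted p = 0.383). GDF15, a stress cytokine, reached 241 FPKM in 5 nM raft 3 and 932 in 5 nM raft 2, against 18.6 in saline raft 6. Both CDKN1A and MDM2 overlapped between the groups.

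No NF-kB cytokine or feedback gene passed. Of 20 tested, 13 had a positive difference and the median was 0.65, where 2279 of all 10083 rows were positive and their median was -1.34. The difference between the list and all rows was not tested. Their summed share of FPKM was 0.129% to 0.561% in kept 5 nM rafts and 0.013% to 0.080% in kept saline rafts. CXCL2 had 1478, 5.93 and 13.6 FPKM in kept 5 nM rafts and 0 in every saline raft (adjusted p = 0.104). It passed under quantile normalization (adjusted p = 0.0258) and with genes detected as a term (adjusted p = 0.00168). IL8, another neutrophil chemokine, had 1013, 0 and 556 FPKM with 5 nM and 0, 0, 2.32 and 0 with saline (adjusted p = 0.127). IL8 passed with genes detected as a term (adjusted p = 0.0215), but not under quantile normalization (adjusted p = 0.0624). CXCL1 had 196, 0 and 388 FPKM with 5 nM, against 10.2 FPKM in saline raft 7 only (adjusted p = 0.272). ATF3, a stress-induced transcription factor of the immediate early class, had 136, 0 and 183 FPKM in kept 5 nM rafts and 0 in each kept saline raft (adjusted p = 0.0787). ATF3 passed under quantile normalization (adjusted p = 0.0189), but not with genes detected as a term (adjusted p = 0.0678). Its values in proliferative rafts kept by rho ran from 0 to 656 FPKM with 5 nM (median 290) and were detected in 1 of 7 with saline.

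Epithelial genes had a positive median. Of 31 tested, 19 were positive with a median of 0.78, against -1.34 over all rows, and none passed. KRT18, a simple-epithelium keratin, had 530, 996 and 884 FPKM in kept 5 nM rafts and 520, 1695, 1368 and 279 in kept saline rafts (0.03 ± 0.78, adjusted p = 0.997). EPCAM, an epithelial adhesion molecule, had 331, 219 and 109 FPKM with 5 nM and 18.3, 186, 144 and 186 with saline (1.01 ± 2.07, adjusted p = 0.78). KRT8 had 19.6, 248 and 125 FPKM with 5 nM, against 35.0, 1076, 1377 and 132 with saline (adjusted p = 0.27). S100P was the member with the largest difference (6.96 ± 2.24, adjusted p = 0.0783). It passed under quantile normalization (adjusted p = 0.0266) and with genes detected as a term (adjusted p = 0.0246). CEACAM6, a surface glycoprotein of ductal tumours, ran the other way, with 0, 69.6 and 0 FPKM with 5 nM and 59.5, 1142, 404 and 981 with saline (adjusted p = 0.101). VIM, a mesenchymal intermediate filament that CFPAC-1 expresses in bulk, had 2.35, 341 and 163 FPKM in kept 5 nM rafts and 469, 571, 515 and 1335 in kept saline rafts (-3.52 ± 1.99, adjusted p = 0.284).

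**Figure D4:**
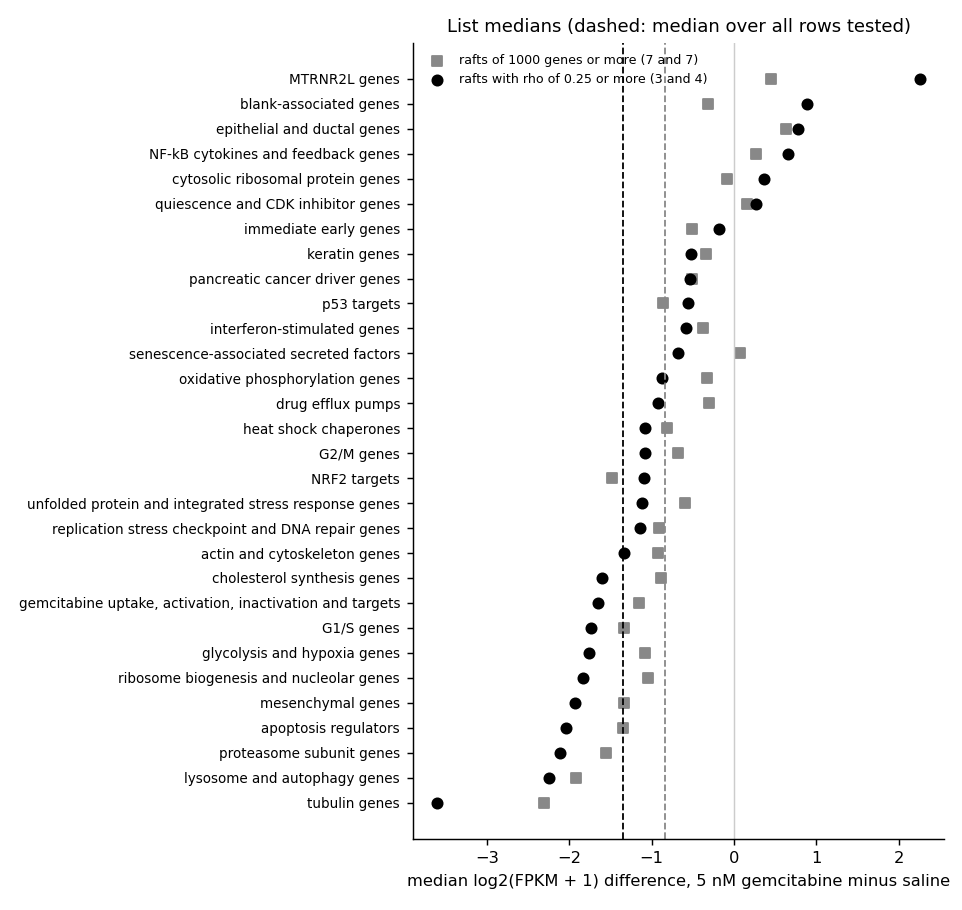
Median log2(FPKM + 1) difference (x axis, 5 nM gemcitabine minus saline) of each gene list with at least 4 members tested. Black circles are the fit on 3 and 4 rafts with a rho of at least 0.25 and grey squares the fit on 7 and 7 rafts. Dashed lines mark the medians over all rows, -1.34 and -0.84. Tubulin genes lie lowest (-3.61 in the kept rafts) and MTRNR2L genes highest (2.26).

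Set against all rows, the lists spread on both sides of the median, which stands here in place of a test of each list. In the kept rafts, among lists with at least 4 genes tested, tubulin genes had the lowest median (-3.61), followed by lysosome and autophagy genes (-2.25) and proteasome subunits (-2.11). Under quantile normalization proteasome subunits were lowest (-2.17) and tubulin genes next (-1.93). Of 31 proteasome genes 8 had an unadjusted p under 0.05 as lower and 0 as higher, and none passed. PSMD8 of its regulatory particle had 0, 0 and 112 FPKM with 5 nM and 115, 388, 317 and 328 with saline (adjusted p = 0.0743). PSMD8 passed under quantile normalization (adjusted p = 0.0328), but not with genes detected as a term (adjusted p = 0.224). Cholesterol synthesis genes had a median of -1.60 and 0 calls among 24, replication stress and repair genes -1.14 and 0 among 36. For unfolded protein response genes it was -1.11 with 0 calls among 24, for heat shock chaperones -1.08 with 0 among 16, and for interferon-stimulated genes -0.58 with 0 among 35. BST2, a membrane protein induced by interferon that tethers virions, came closest to the threshold, with 0, 23.0 and 0 FPKM in 5 nM rafts and 616, 588, 335 and 173 FPKM in saline rafts (adjusted p = 0.0516). BST2 passed under quantile normalization (adjusted p = 0.0128), but not with genes detected as a term (adjusted p = 0.179). Quiescence and CDK inhibitor genes had a median of 0.26 with 12 of 22 positive, drug efflux pumps -0.92 with 0 of 4 positive, and pancreatic cancer driver genes -0.53 with 0 calls among 9. GATA6 of the driver list passed as higher under quantile normalization (adjusted p = 0.00269) and with genes detected as a term (adjusted p = 0.0229). The MTRNR2L genes, nuclear copies of mitochondrial sequence, had a median of 2.26 and blank-associated genes one of 0.89. The MTRNR2L share was 0.509% to 1.04% in kept 5 nM rafts and 0.124% to 0.217% in kept saline rafts, and its part in the results was not tested. With quantile normalization the medians of several lists turned positive, among them interferon-stimulated genes (0.71), keratins (1.25, against -0.53 as deposited) and senescence-associated secreted factors (1.40, against -0.68).

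Whether the effect of 5 nM gemcitabine differed between nonproliferative and proliferative rafts was tested as a difference of differences. With rafts of at least 1000 genes, 0 of 11560 rows (0.0%) passed limma's test, the smallest adjusted p was 0.999, and 363 rows had an unadjusted p under 0.05. With rafts kept by rho, a comparison added after the data had been seen, 7 of 10083 rows passed (0.0694%). In all 7 the 5 nM minus saline difference was lower in nonproliferative than in proliferative rafts. Within proliferative rafts 5 nM minus saline gave 8 calls of 11560 with at least 1000 genes, all lower (0.0692%), and 4 of 10083 by rho (0.0397%), 1 higher (0.00992%) and 3 lower (0.0298%). For 6 of the 7 rows the proliferative rafts kept by rho (5 with 5 nM and 7 with saline) showed high levels in both arms, with LMAN2 at 0 in at least 1 saline raft. LMAN2 ranged from 184 to 703 FPKM in proliferative 5 nM rafts and from 0 to 868 in proliferative saline rafts, against 0 to 2.18 and 601 to 990 in the nonproliferative rafts of those arms (difference of differences -10.35 ± 2.18, adjusted p = 0.0244). TAGLN2 ranged from 395 to 1877 FPKM with 5 nM and from 185 to 438 with saline in proliferative rafts (-7.68 ± 1.48, adjusted p = 0.0102). APRT ranged from 325 to 1369 and from 415 to 1007 FPKM there (-7.43 ± 1.44, adjusted p = 0.0102), and S100A16 from 180 to 2953 and from 734 to 2607 (-6.32 ± 1.31, adjusted p = 0.0207). The 5 proliferative 5 nM rafts detected 1759 to 10075 genes and the 3 nonproliferative ones 3719 to 4478. The part of gene detection in these differences was not tested. The receptor TNFRSF12A and the glycolytic enzyme PKM passed on 1 row each (-8.97, adjusted p = 0.017, and -8.51, adjusted p = 0.0102), but both names stand on more than 1 row. The other PKM row tested gave 1.58 ± 1.42 (adjusted p = 0.742), so reads may have been split between rows. MMP1 was the exception in pattern: it was listed at 0 in the kept proliferative rafts too, apart from 17.4 FPKM in 1 with 5 nM, and its difference of differences (-7.29 ± 1.61, adjusted p = 0.0451) rests on the nonproliferative saline rafts. Leaving out 1 raft at a time gave 2 to 9 calls, with 2 without saline raft 8, 3 without 5 nM raft 3, and 4 without saline raft 5 or without 5 nM raft 4.

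**Figure D5:**
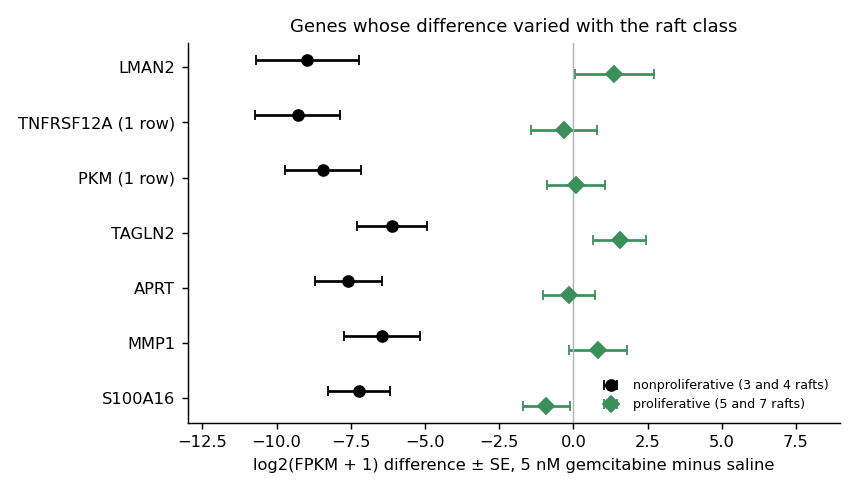
Difference in log2(FPKM + 1), 5 nM gemcitabine minus saline (x axis), with its standard error, for the 7 genes whose difference varied with the raft class. Black circles are nonproliferative rafts (3 and 4) and green diamonds proliferative rafts (5 and 7), all with a rho of at least 0.25. The nonproliferative differences run from -9.30 to -6.12 and the proliferative ones from -0.91 to 1.56.

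Nonproliferative rafts of the 2 nM arm give the lower dose beside the same saline rafts. As the controls are shared, the values are set side by side only, and of 11560 rows 0 (0.0%) passed for 2 nM minus saline (limma, smallest adjusted p 0.821, 613 rows with an unadjusted p under 0.05). The 3 rafts of that arm kept by rho had 490, 453 and 384 FPKM of LMAN2, 838, 897 and 162 of S100A16, 1025, 637 and 774 of APRT, and 212, 123 and 335 of CRIP2. Those 4 genes, lower in the kept 5 nM rafts, were therefore present in each kept 2 nM raft. The kept 2 nM rafts detected 9074, 6195 and 5104 genes, against 3719 to 4478 in the kept 5 nM rafts. The part of gene detection in this contrast was not tested. RBP4 had 141, 110 and 0 FPKM with 2 nM, and ATF3 0, 3.21 and 0. The 2 untreated nonproliferative rafts kept by rho, with 2353 and 2196 genes detected, were at 0 for LMAN2 and APRT as well, had 20.9 and 384 FPKM of S100A16, and 25.8 and 0 of CRIP2. LMAN2 and APRT were thus at 0 in both of these rafts without the drug, and S100A16 in neither.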

How the data were processed

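Members and gene lists were chosen with earlier results of these data known. FPKM values were made by the authors with RSEM against hg19, per the submitters' processing notes, from SMARTer and Nextera XT libraries, per the labels' protocols, and deposited as 1 table of 30504 rows and 120 columns with 27118 distinct names. It holds no counts, so depth is unknown and no counting interval is given; column totals of the 16 rafts run from 393510 to 801665. Expression was compared on log2(FPKM + 1), which understates changes of low genes, with limma 3.58.1 (limma-trend, R 4.3.3, two-sided, Benjamini-Hochberg, threshold 0.05). All 8 arm and class groups of the gemcitabine experiment shared 1 estimate of spread, and rows needed an FPKM of 1 in at least 8 libraries. A difference for a gene listed at 0 in a whole group depends on the pseudocount, so only its p is given outside the comparison of raft classes. That p depends on the pseudocount too: 86 of the 113 calls were shared at a pseudocount of 0.1 and 90 at 10. An exact 0 can be a failed estimate. Library measures were tested by exact permutation in scipy 1.17.1.

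Named were, per direction, up to 10 genes of the first fit and 5 of the second, a panel of drug, cycle and identity genes, up to 4 members of each list by smallest p, and, after their values were seen, list members and class differences that passed. Names repeated on several rows are uncertain. On simulated data the second fit recovered 27 of 50 genes shifted by 6 log2 units and 8 of 50 by 4, with 1 of 9883 unshifted genes called. No 2 libraries held identical values. Human sequence and coordinates were not used here. Figures used matplotlib 3.10.9.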

Additional observations from a re-analysis of the deposited data

Results flagged for a closer look

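In the 14 groups of library measures examined, 4 rafts stood far from the others of their group. The rule is meant to flag about 1 in 20 groups of normally distributed values. Its rate for skewed measures such as these was not tested. Of the 5 nM rafts, raft 7 had 10198 genes detected, raft 5 had 84.3% of its FPKM in 10 rows, and raft 1 had 4.52% in blank-associated genes. Of the saline rafts, raft 4 had 17.3% in MTRNR2L genes. Raft 5 of the 5 nM group has fewer than 1000 genes and entered neither fit, and the other 3 entered only the fit with 7 and 7 rafts.

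For 7 rows the difference between 5 nM gemcitabine and saline was itself different between the raft classes, by an interaction term of limma on rafts with a rho of at least 0.25. On the log2(FPKM + 1) scale the difference of differences, nonproliferative minus proliferative, was -10.35 for LMAN2, -8.97 for 1 row of TNFRSF12A, -8.51 for 1 row of PKM, -7.68 for TAGLN2, -7.43 for APRT, -7.29 for MMP1 and -6.32 for S100A16. With rafts of at least 1000 genes the same terms were smaller (-4.16 for LMAN2, -0.83 for APRT, and 0.63 for S100A16), and none passed.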

How the results depend on the processing

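No paired analysis was possible because the labels give the rafts of the 2 groups no shared numbers. With rafts of at least 1000 genes the count of 0 became 1909 with library weights (46 higher, 1863 lower), 1 without both 5 nM raft 7 and saline raft 3 (chosen after seeing the data), and 0 to 2 without 1 raft at a time, 2 being without saline raft 3, and stayed 0 otherwise. With rafts of rho 0.25 or more the 113 became 283 with no filter on low values (137 higher, 146 lower), 711 with quantile normalization, 390 with library weights, 1100 with the 2 groups alone and 655 with the 4 nonproliferative groups alone, and 33 to 111 without 1 raft. It was 90 and 165 with a pseudocount of 0.1 and 10 (for 10, 68 higher and 97 lower), 169 for rows detected in 16 libraries, and 104 at equal totals. Each of the 113 that could be tested kept its sign in all of these, but these fits reuse the rafts in which the genes were called. The class difference with 1000 genes or more stayed at 0 except for 1 with library weights and 7 with rho of 0.25 or more. Those 7 became 17 with no filter, 40 with quantile normalization (26 higher, 14 lower), 16 with library weights, and 2 to 9 without 1 raft. The cause of these moves was not tested. Genes detected differed by -3147 to -1495 and rho by -0.22 to -0.099 without 1 raft, and neither passed under any alternative. Of single-gene values under the other settings 3107 stayed on the same side of the threshold, 174 newly passed and 35 no longer passed. Another 22 changed sign by more than 1 SE without passing in either fit. The 3107 can include smaller changes of sign. No value that passed in either fit changed sign. Without 1 raft at a time 3104 stayed on the same side in that sense, 8 newly passed, 111 no longer passed and 5 changed sign by more than 1 SE. As the table holds no counts, low depth and absence cannot be told apart at low levels.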
